A study of Sus scrofa with 15 samples.

Results

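The tissue factor and plasminogen activator system was followed here through 8 genes: F3, TFPI, TFPI2, THBD, PROCR, PLAU, PLAT and PLAUR. They were chosen by function with values from these libraries already known. Their rows were found by matching the NCBI Gene numbers of the expression tables to pig gene symbols. All 8 genes had a row among the 19197 genes of either table, and 7 of them were among the 16804 genes of both; TFPI was analysed in 1 table only. A gene was tested where it reached at least 1 FPKM (fragments scaled to gene length and to the mapped total of the library) in at least 3 libraries of a table. That filter left 6 of the 8 genes in each table, and THBD and TFPI did not pass it.

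The cells were IPEC-J2, an epithelial line from the small intestine of the pig, transduced with lentiviruses against or for the microRNAs miR-133 and miR-143. RNA sequencing of total RNA gave 15 libraries in 5 groups of 3. Lv133KD carried the miR-133 knockdown vector, Lv143KD a second knockdown vector, and Lv3NC the control vector for knockdown. OV143 carried the miR-143 overexpression vector and Lv20NC the control vector for overexpression. The sample labels name the second knockdown vector after miR-143, while the design text gives miR-133 as its target, so its target is not settled. Every group carried a lentivirus. Promoter, clonality, dose and time after transduction are not given in the labels, and neither is the source of the 3 libraries within a group; the spread that p-values measure may thus be technical. Neither microRNA was itself analysed here, so whether the vectors acted on their targets was not checked.

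Tissue factor is a membrane protein that binds clotting factor VII and starts the extrinsic pathway of coagulation, which ends in thrombin. Tissue factor pathway inhibitors block its early steps, and thrombomodulin and the endothelial protein C receptor turn thrombin towards the anticoagulant protein C pathway. In the plasminogen activator system, urokinase and tissue-type plasminogen activator convert plasminogen to plasmin, which digests fibrin and matrix; the urokinase receptor holds urokinase on the cell surface. In epithelia this system is known for its part in wound repair and cell migration.

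Values were FPKM in 2 tables that were normalised separately, one with the 9 knockdown libraries and one with the 6 overexpression libraries, and tests were confined to single tables. FPKM holds no read total and depth is unknown. FPKM sums lay between 486086 and 520630 in the knockdown table and between 518578 and 558042 in the overexpression table, except for 662022 in OV143 replicate 2, which stood apart. All 5 epithelial markers passed the filter in both tables, with EPCAM between 266.8 and 717.9 FPKM. Of the 7 leukocyte markers, 3 passed the filter in each table, with LCP1 between 9.48 and 19.6 FPKM. PTPRC, another leukocyte marker, is listed at 0 in all 9 knockdown libraries. No platelet marker passed the filter in either table.

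**Figure D1:**
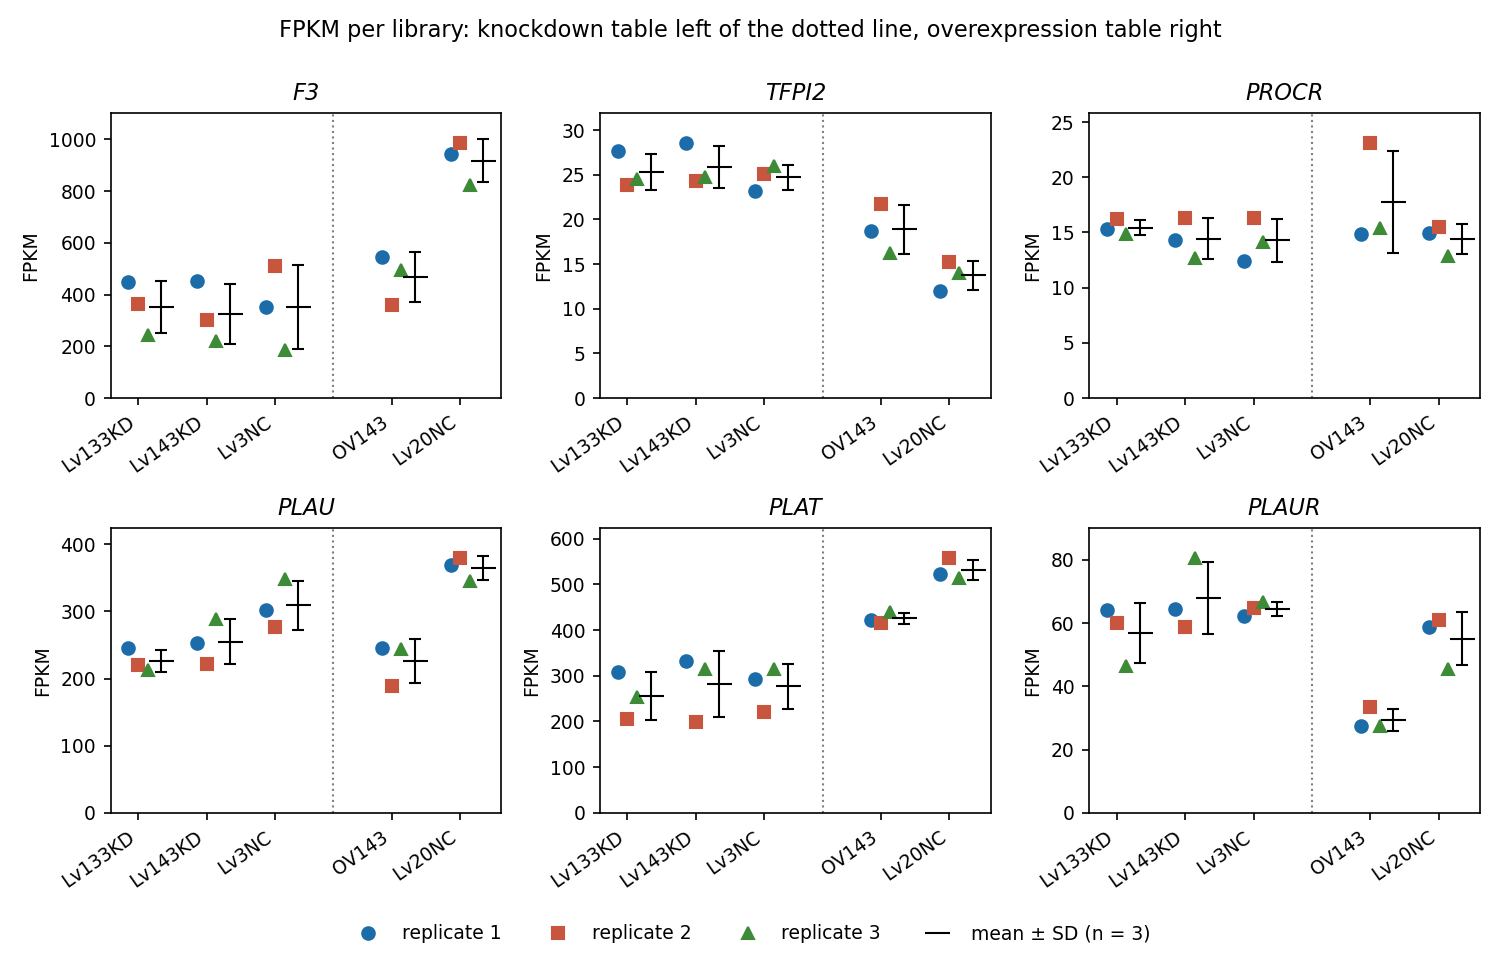
FPKM of the 6 tested genes in each of the 15 libraries, by vector group (x axis) and replicate number (symbols), with the mean ± SD of each group (n = 3). The knockdown and overexpression tables stand on either side of the dotted line because they were normalised separately. F3, PLAU, PLAT and PLAUR are lower in every OV143 library than in any Lv20NC library, as were 12.9% of all genes tested. The knockdown groups overlap except for PLAU in Lv133KD and Lv3NC, an order shared by 3.33% of all genes tested. The genes were chosen with values from these libraries already known.

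F3 (tissue factor), PLAUR (the urokinase receptor) and PLAU (urokinase) were lower in OV143 cells than in Lv20NC cells. Mean FPKM in OV143 was 0.509 times that of Lv20NC for F3, 0.536 times for PLAUR and 0.619 times for PLAU. PLAT (tissue-type activator) was at 0.801 times. TFPI2 (tissue factor pathway inhibitor 2), at 1.38 times, and PROCR (the endothelial protein C receptor) had higher means in OV143. Values that chose these genes came from the same libraries, so the members' values are given as a description, and each adjusted p comes from a fit over all 11506 genes of the table.

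In OV143 against Lv20NC, 3 of the 6 tested genes (F3, PLAUR and PLAU) were called, all lower in OV143, at an adjusted p under 0.05 in limma's fit that takes the replicate number as a blocking factor (the block). The block removes differences that libraries of the same number share. What a number marks is not given in the labels. In deviations from the group means, OV143 replicate 1 correlated more with Lv20NC replicate 3 (0.54) than with Lv20NC replicate 1 (0.23). Over all genes tested the fit with the block called 1.94% in all, 1.29% lower and 0.643% higher, with 19.9% at an unadjusted p under 0.05. Without the block limma called 0 of the 6 and 0 of all 11506 genes, with 11.3% of all genes at an unadjusted p under 0.05. With OV143 replicate 2 left out and no block, the same 3 genes were called, beside 4.46% of all genes tested. Leaving out any other library, again with no block, did not call any of the 3.

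F3 is encoded on chromosome 4 at 122827018 to 122837673 (NCBI Gene 396677; build Sscrofa11.1 here and below). It had 544.5, 360.5 and 496.9 FPKM in OV143 replicates 1 to 3, against 943.9, 985.2 and 823.9 FPKM in Lv20NC. The groups did not overlap, and OV143 replicate 2 was the lowest of the 6 libraries. Its log2 fold change was -0.99 (SE 0.15 with the block), with an adjusted p of 0.0120 with the block and 0.124 without it in limma's fits. Without OV143 replicate 2 the log2 fold change was -0.81 (adjusted p = 0.00162, limma without the block). Of the 6 limma fits that each left out 1 library, only that 1 called F3, with an adjusted p of up to 0.807 in the others. Of all genes tested, 12.9% had every OV143 library below every Lv20NC library. In bulk RNA, fewer cells expressing a gene and less of its RNA per cell cannot be told apart.

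TFPI2 encodes a Kunitz-type serine protease inhibitor that acts on plasmin and on the complex of tissue factor with factor VIIa. Its gene lies on chromosome 9 at 73684236 to 73694663 (NCBI Gene 100520144). It had 18.7, 21.8 and 16.3 FPKM in OV143, against 11.95, 15.23 and 13.97 FPKM in Lv20NC. All OV143 values were above all Lv20NC values, as for 8.96% of the genes tested. This log2 fold change of 0.43 (SE 0.11 with the block) did not pass, with an adjusted p of 0.0782 with the block and 0.302 without it in limma. With the block and without both libraries numbered 2 it was called, at 0.41 (adjusted p = 0.0003), in a limma fit on 2 pairs that called 12.7% of all genes. Only that 1 of the 3 limma fits without a number called TFPI2, with an adjusted p of up to 0.182 in the others. Without OV143 replicate 2 and with no block TFPI2 did not pass (adjusted p = 0.107, limma). The ratio of F3 to TFPI2 FPKM was 25.4 ± 7.70 in OV143 and 67.5 ± 10.3 in Lv20NC (SD, n = 3 each). Its groups cannot overlap, since the 2 genes separated in opposite directions, so the ratio adds no further evidence.

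TFPI, the main circulating inhibitor of the tissue factor complex (chromosome 15 at 92345083 to 92409962; NCBI Gene 100155068), was analysed in the knockdown table only. It lay between 0 and 0.03 FPKM over those 9 libraries. With no read totals, values this low do not distinguish a low level from none.

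PROCR binds protein C and presents it to the complex of thrombin with thrombomodulin (chromosome 17 at 38532530 to 38537397; NCBI Gene 654289). It had 14.9, 23.1 and 15.4 FPKM in OV143, against 15.0, 15.5 and 12.9 FPKM in Lv20NC. Only OV143 replicate 2 lay above the Lv20NC range. Its log2 fold change was 0.26 (SE 0.12 with the block), with an adjusted p of 0.268 with the block and 0.603 without it in limma, and 0.07 without OV143 replicate 2.

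THBD (thrombomodulin, the thrombin receptor of the protein C pathway; chromosome 17 at 30219870 to 30223499; NCBI Gene 100157642) stayed under the filter. It had 0.31, 0.29 and 0.26 FPKM in OV143, against 0.30, 0.23 and 0.25 FPKM in Lv20NC, and the groups overlapped. Among the knockdown libraries THBD lay between 0.26 and 0.45 FPKM in all 9 libraries. THBD and PROCR are best known from endothelium. Of the 7 endothelial markers listed, 6 had a row and 2 passed the filter in the overexpression table. Their summed level was 5.31 to 6.86 FPKM in OV143 and 6.89 to 7.10 FPKM in Lv20NC, mostly from CDH5, with ESAM at 0.07 FPKM or less and TEK at 0.03 FPKM or less. The sums lay just apart and lower in OV143, as F3, PLAU, PLAT and PLAUR were, and their part in those results was not tested. Among the 6 markers with a row, CDH5, PECAM1 and ESAM (0 FPKM in OV143 and 0.023 FPKM in Lv20NC) had lower means in OV143. Higher means were those of VWF (0.38 FPKM in OV143 and 0.31 FPKM in Lv20NC), KDR (0.23 and 0.17 FPKM) and TEK. The epithelial markers summed to 1974 to 2773 FPKM in OV143 and 2037 to 2312 FPKM in Lv20NC, which overlap. Of the 5, 2 separated, in opposite directions, while 21.9% of all genes tested separated in either direction. EPCAM was at 608.4 to 717.9 FPKM in OV143 and 485.6 to 571.4 FPKM in Lv20NC, and CDH1 at 158.6 to 226.2 FPKM in OV143 and 238.1 to 258.4 FPKM in Lv20NC. Neither passed in limma (adjusted p = 0.184 for EPCAM and 0.178 for CDH1 with the block), and their part in the results was likewise not tested.

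PLAU is encoded on chromosome 14 at 76629313 to 76635173 (NCBI Gene 396985). It had 245.3, 188.3 and 244.0 FPKM in OV143, against 369.4, 379.2 and 345.5 FPKM in Lv20NC. As for F3, the groups did not overlap and OV143 replicate 2 was lowest. On the log2 scale PLAU changed by -0.70 (SE 0.12 with the block; adjusted p = 0.0217 with the block and 0.152 without it, limma). Without OV143 replicate 2 it was -0.57 (adjusted p = 0.00357, limma without the block). Only that 1 of the 6 leave-one-out limma fits called PLAU, and the adjusted p reached 0.858 in the others.

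PLAUR lies on chromosome 6 at 50489773 to 50505453 (NCBI Gene 100521017). Its FPKM values were 27.4, 33.4 and 27.6 in OV143, against 58.6, 61.1 and 45.4 in Lv20NC. The groups did not overlap, and here OV143 replicate 2 was the highest of its group. Its log2 fold change was -0.87 (SE 0.11 with the block), and limma gave an adjusted p of 0.00803 with the block and 0.122 without it. Leaving out OV143 replicate 2 gave -0.96 (adjusted p = 0.00128, limma without the block). PLAUR too was called in only that 1 of the 6 leave-one-out limma fits, with an adjusted p of up to 0.805 in the others. PLAUR was at 0.467, 0.548 and 0.608 times the Lv20NC library of the same number in replicates 1, 2 and 3.

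PLAT is encoded on chromosome 17 at 11195599 to 11223821 (NCBI Gene 397121). It had 422.3, 415.6 and 439.6 FPKM in OV143, against 523.6, 557.3 and 515.0 FPKM in Lv20NC. The spread within each group was small beside the gap between them, with means of 425.8 ± 12.4 FPKM in OV143 and 531.9 ± 22.4 FPKM in Lv20NC (SD, n = 3 each). The log2 fold change of -0.32 (SE 0.10) did not pass in limma, with an adjusted p of 0.139 with the block and 0.295 without it. It was called, at -0.27 (adjusted p = 0.00038), with the block and without both libraries numbered 2, where 12.7% of all genes were called from 2 pairs. PLAT was called in only that 1 of the 3 limma fits without a number, with an adjusted p of up to 0.637 in the others. Without OV143 replicate 2 and with no block PLAT did not pass (adjusted p = 0.0658, limma).

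Within a library, the ratio of PLAU to PLAT FPKM was 0.53 ± 0.07 in OV143 and 0.69 ± 0.02 in Lv20NC (SD, n = 3 each), without overlap. F3 over PLAU was 2.06 ± 0.15 in OV143 and 2.51 ± 0.11 in Lv20NC, also without overlap. PLAU over PLAUR was 7.81 ± 1.89 in OV143 and 6.71 ± 0.78 in Lv20NC, and these ranges overlapped. A ratio shows unequal or equal change of 2 genes and not which of them moved. How often the ratios of other gene pairs separate was not counted, and these genes were chosen with values known.

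**Figure D2:**
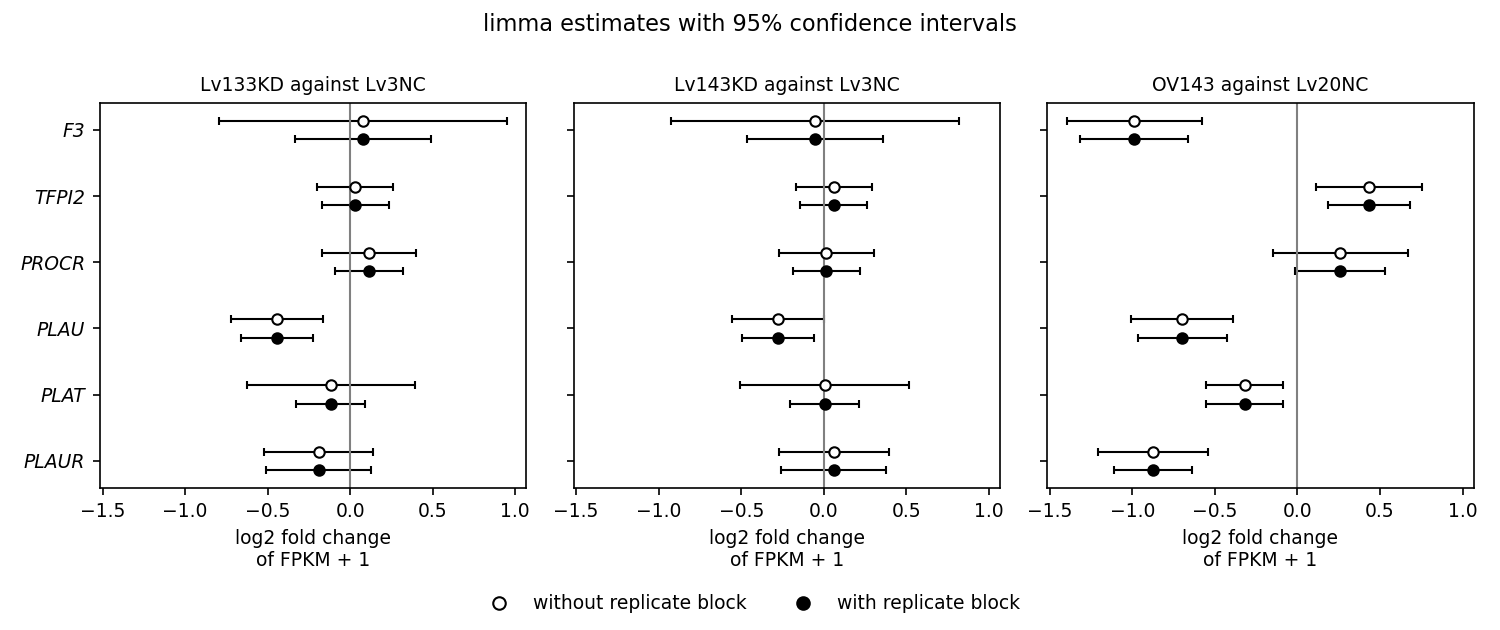
Log2 fold change of FPKM + 1 (x axis) with its 95% confidence interval for the 6 tested genes, in Lv133KD against Lv3NC, Lv143KD against Lv3NC and OV143 against Lv20NC, from limma without (open) and with (filled) the replicate block. F3, PLAU and PLAUR lie between -0.99 and -0.70 in OV143, and in the knockdown comparisons only the PLAU intervals of Lv133KD exclude 0 in both fits.

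Of the other pathway genes reported here, 0 passed in OV143. Among 51 such coagulation and plasminogen genes listed by function, 26 were tested in the overexpression table, and their median log2 fold change was 0.06, beside -0.51 for the 6 tested genes of the set and -0.02 for all genes. The 6 genes of the set were chosen with values known. Limma called 0 of the 26 with the block, beside 1.94% of all genes, and 0 without it, beside 0%. By sign, 16 of the 26 were higher and 10 lower in OV143, which is no test. Of all 11506 genes, 5271 were higher and 6235 lower.

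Among the receptors for clotting proteases, F2R, the thrombin receptor PAR1, lay between 10.2 and 12.2 FPKM in OV143 and between 8.61 and 10.2 FPKM in Lv20NC (n = 3 each; adjusted p = 0.307 with the block, limma). F2RL1, which encodes PAR2, a receptor cleaved by trypsin-like proteases and by the tissue factor complex, averaged 9.44 ± 1.02 FPKM in OV143 and 10.1 ± 0.41 FPKM in Lv20NC (adjusted p = 0.646 with the block, limma). Neither passed. ANXA2 and S100A10, which form a cell-surface complex that binds plasminogen and tissue-type activator, were among the most abundant genes of the lists. ANXA2 averaged 1449 ± 89.5 FPKM in OV143 and 1504 ± 93.9 FPKM in Lv20NC, and the sign of its log2 fold change of -0.05 turned when libraries were set to equal medians. S100A10 averaged 942.9 ± 245.7 FPKM in OV143 and 788.3 ± 46.0 FPKM in Lv20NC, and did not pass (adjusted p = 0.345 with the block, limma). OV143 replicate 2 alone, at 1223 FPKM, carried the higher mean: the log2 fold change of S100A10 was 0.23 with it and 0.03 without it. SERPINB2, which encodes a serpin that inhibits urokinase, was under the filter in this table, at 0.39 to 0.48 FPKM in OV143 and 0.23 to 0.49 FPKM in Lv20NC.

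By list, these were 0 of 3 tested inhibitors of plasminogen activators and plasmin, 0 of 3 thrombin and protease-activated receptors, 0 of 5 clotting proteases and cofactors, 0 of 3 anticoagulant proteins, 0 of 7 plasminogen binding or clearance partners and 0 of 5 membrane serine proteases and Kunitz inhibitors. F2, which encodes prothrombin, averaged 1.76 FPKM in OV143 and 1.06 FPKM in Lv20NC, with all OV143 values above all Lv20NC values, as for 8.96% of all genes tested (adjusted p = 0.073 with the block, limma). With the block and without both libraries numbered 2, limma called F2, F2R, VKORC1 and ENO1 higher in OV143, beside 12.7% of all genes.

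**Figure D3:**
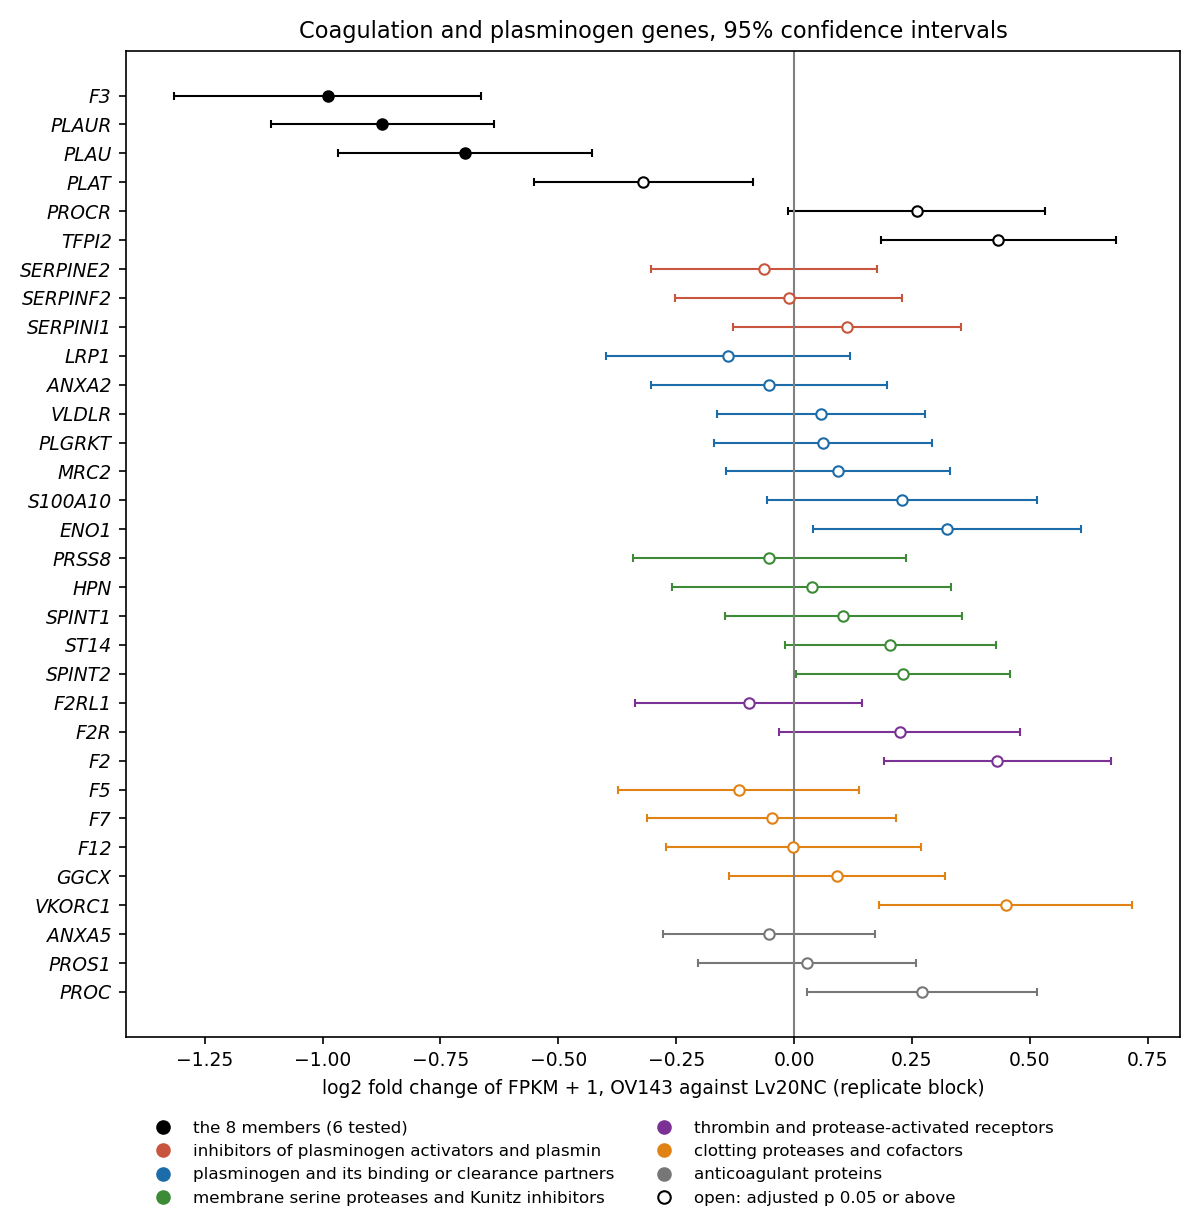
Log2 fold change of FPKM + 1 with its 95% confidence interval in OV143 against Lv20NC (x axis, limma with the replicate block) for the 6 tested genes of the set and the 26 tested genes of the other lists (rows, coloured by list). Filled points passed an adjusted p under 0.05: F3, PLAUR and PLAU, all lower in OV143.

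In the knockdown table PLAU had a lower mean under both vectors, and no gene of the set passed. Mean PLAU was 226.1 ± 17.0 FPKM in Lv133KD, 254.8 ± 33.4 FPKM in Lv143KD and 308.8 ± 36.0 FPKM in Lv3NC (SD, n = 3 each). Limma called 0 of the 6 tested genes in Lv133KD against Lv3NC, with 0.0172% of all 11645 genes called without the block and 0.258% with it. In Lv143KD against Lv3NC it also called 0 of 6, with 0.0172% of all genes called without the block and 0.172% with it. At an unadjusted p under 0.05, PLAU alone of the 6 was below that limit in Lv133KD in both fits, beside 3.26% of all genes without the block and 16.5% with it; in Lv143KD it was below the limit in the fit with the block only, where 5.74% of all genes were, against 1.79% without the block. With the block, PLAU alone of the 6 in Lv133KD is near the share of all genes. The 2 comparisons share the Lv3NC libraries.

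PLAU had 245.4, 219.8 and 213.1 FPKM in Lv133KD replicates 1 to 3, 253.1, 222.3 and 289.0 FPKM in Lv143KD, and 301.6, 277.0 and 347.8 FPKM in Lv3NC. All Lv133KD values lay below all Lv3NC values, as for 3.33% of all genes tested, while the Lv143KD and Lv3NC ranges overlapped. Within each replicate number PLAU was lower in both knockdown vectors than in Lv3NC, at 0.613 to 0.814 times in Lv133KD and 0.803 to 0.839 times in Lv143KD. The share of all genes in that order was not counted, and both vectors were set against the same Lv3NC libraries. The log2 fold change was -0.44 in Lv133KD (95% interval -0.72 to -0.16; adjusted p = 0.926 without and 0.136 with the block, limma). In Lv143KD it was -0.28 (95% interval -0.56 to 0.0011; adjusted p = 1.00 without and 0.720 with the block, limma).

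F3 had 447.1, 363.5 and 245.0 FPKM in Lv133KD, 451.9, 303.1 and 220.3 FPKM in Lv143KD, and 353.3, 511.0 and 186.9 FPKM in Lv3NC. The 3 groups covered nearly the same wide range. The log2 fold change was 0.08 in Lv133KD and -0.05 in Lv143KD, and its 95% intervals of -0.79 to 0.95 and -0.93 to 0.82 leave differences of that width in either direction undetected. With the block the intervals narrowed to -0.33 to 0.49 in Lv133KD and -0.47 to 0.36 in Lv143KD.

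TFPI2 averaged 25.3 ± 2.03 FPKM in Lv133KD, 25.9 ± 2.31 FPKM in Lv143KD and 24.7 ± 1.40 FPKM in Lv3NC. PROCR averaged 15.4 ± 0.71, 14.4 ± 1.83 and 14.3 ± 1.98 FPKM in the same 3 groups (SD, n = 3 each). For both genes the groups overlapped, with 95% intervals of the log2 fold change between -0.27 and 0.40 at the widest without the block.

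PLAUR had 64.3, 60.0 and 46.3 FPKM in Lv133KD, 64.5, 58.6 and 80.5 FPKM in Lv143KD, and 62.2, 64.8 and 66.5 FPKM in Lv3NC. Replicate 3 was the lowest library of Lv133KD and the highest of Lv143KD, and both groups overlapped Lv3NC. The log2 fold changes were -0.19 in Lv133KD and 0.06 in Lv143KD, and the adjusted p with the block was 0.496 and 0.999 in limma. PLAT averaged 255.9 ± 52.1 FPKM in Lv133KD, 281.7 ± 71.9 FPKM in Lv143KD and 276.9 ± 49.3 FPKM in Lv3NC, with log2 fold changes of -0.12 and 0.01 against Lv3NC.

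PLAU over PLAT was 0.90 ± 0.15 in Lv133KD, 0.93 ± 0.18 in Lv143KD and 1.13 ± 0.11 in Lv3NC (SD, n = 3 each). PLAU over PLAUR was 4.03 ± 0.51 in Lv133KD, 3.77 ± 0.17 in Lv143KD and 4.78 ± 0.48 in Lv3NC. The ranges of PLAU over PLAUR in Lv143KD, 3.59 to 3.93, and in Lv3NC, 4.28 to 5.23, did not overlap. That of Lv133KD, 3.66 to 4.61, overlapped both. The share of other gene pairs whose ratios separate in this way was not counted.

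Between the 2 knockdown vectors directly, limma called 0 of the 6 genes and 0 of all 11645, a share of 0%, with and without the block; the shares of all genes at an unadjusted p under 0.05 were 0.129% without the block and 1.79% with the block. The largest difference of Lv133KD against Lv143KD was that of PLAUR, at -0.25 on the log2 scale (95% interval -0.58 to 0.08 without the block). The interval for PLAU was -0.45 to 0.11, so a difference as large as that of Lv133KD from Lv3NC lies at its edge. Of the other pathway genes, 0 of 27 tested were called in any of the 3 knockdown comparisons, with or without the block. At most 0.258% of all genes were called in these fits. Among the 27 genes SERPINB2 averaged 2.06 ± 0.61 FPKM in Lv133KD, 1.81 ± 0.89 FPKM in Lv143KD and 1.39 ± 0.89 FPKM in Lv3NC.

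In the knockdown table F3 and PLAT separated by replicate number, while their vector groups overlapped. The 3 libraries numbered 3 had 186.9 to 245.0 FPKM of F3, and the other 6 had 303.1 to 511.0 FPKM. F2RL1 was at 9.88 to 13.9 FPKM in the libraries numbered 3 and at 16.8 to 23.0 FPKM in the others. Of all genes tested, 5.95% had all 3 libraries numbered 3 below the other 6.

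PLAT followed another number: it lay at 199.4 to 221.4 FPKM in the libraries numbered 2 and at 254.5 to 332.0 FPKM in the other 6. That order was common, since 19.1% of all genes tested had the libraries numbered 2 below the rest. PROCR was at 16.2 to 16.3 FPKM in the libraries numbered 2 and at 12.4 to 15.3 FPKM in the others, as 12.1% of all genes were higher there. The labels do not say what a replicate number marks. These groupings by number were chosen after the values were seen and carry no test.

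**Figure D4:**
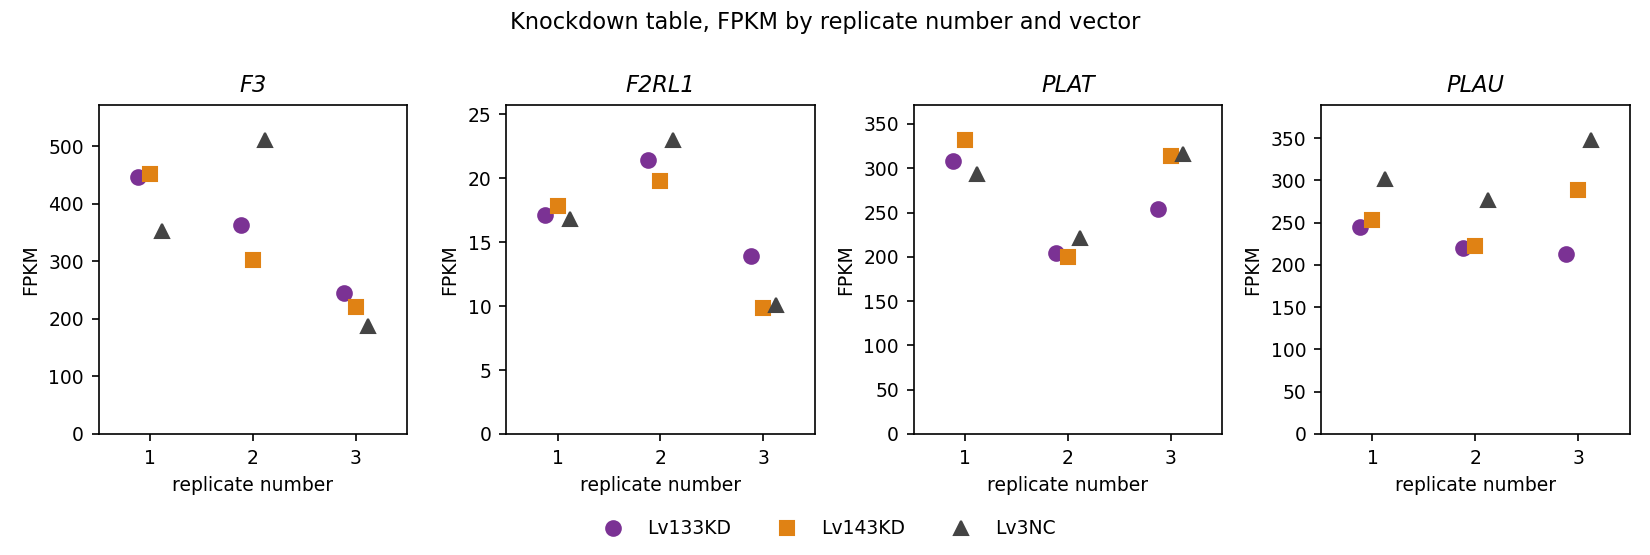
FPKM of F3, F2RL1, PLAT and PLAU in the 9 libraries of the knockdown table, by replicate number (x axis) and vector (symbols). F3 and F2RL1 are lowest in all 3 libraries numbered 3 and PLAT in all 3 numbered 2, while PLAU is highest in Lv3NC within every number. The share of all genes with that order of PLAU was not counted.

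By abundance within a library, F3, PLAT and PLAU stood among the upper few percent of genes in every library. F3 ranked from 142 to 364 among 19000 genes in the knockdown libraries and from 79 to 239 among 17001 in the overexpression libraries. PLAT ranked from 204 to 338 and from 148 to 213, and PLAU from 205 to 310 and from 196 to 446. PLAUR ranked from 906 to 1704 and from 1385 to 2961. TFPI2 and PROCR were mid-range, with TFPI2 between 2896 and 5796 and PROCR between 3527 and 5551 over all 15 libraries. THBD ranked 12479 or lower everywhere. FPKM is scaled by gene length, so these levels can be set beside each other between genes. In OV143, Lv133KD and Lv143KD the order of the group means from high to low was F3, PLAT, PLAU, PLAUR, TFPI2, PROCR, THBD. In Lv20NC PROCR stood just above TFPI2, and in Lv3NC PLAU above PLAT, in both cases with overlapping ranges. The ranges of F3 and PLAT overlapped in OV143 and did not in Lv20NC.

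Across the 9 knockdown libraries the tested genes did not move as one: F3 and PLAU had a Pearson correlation of -0.30, F3 and PLAT one of -0.19, and PLAU and PLAUR one of 0.63 on log2(FPKM + 1). Over the 6 overexpression libraries F3 and PLAU had a correlation of 0.997. Both genes separated the 2 groups there, and the part of this gap in the correlation was not tested. These values are descriptions, over libraries that share vector groups and replicate numbers.

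The 2 genes most like each member were those with the highest smaller value of its 2 Pearson correlations, over the 9 and over the 6 libraries, among 11136 genes. For F3 they were MXD1, a partner of MAX in transcriptional repression (0.96 over the 9 and 0.99 over the 6 libraries), and EVC2 (0.95 and 0.97). For PLAU they were the lipase gene MGLL (0.90 and 0.90) and RAB3D (0.89 and 0.95), and for PLAUR CMIP (0.82 and 0.85) and DLGAP4 (0.81 and 0.93). PLAT was most like the kinase gene MKNK2 (0.93 and 0.94) and RASSF1 (0.92 and 0.97). PROCR was most like OAZ1, the ornithine decarboxylase antizyme (0.98 and 0.99), and RUSC1 (0.95 and 0.95), and TFPI2 most like RMI2 (0.83 and 0.87) and EMC6 (0.88 and 0.82). The 2 correlations of each pair rest on the same libraries for all genes. Over the 6 libraries they include the gap between the 2 vector groups for F3, PLAU, PLAUR, PLAT and TFPI2, which did not overlap. For PROCR the groups overlapped, and only OV143 replicate 2, at 23.1 FPKM, lay above the Lv20NC range.

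Some of the genes overlap another gene model in RefSeq, and since strand use in counting is not given in the sources used here, reads from the overlap cannot be assigned. PLAU overlaps CAMK2G, which was at 9.26 to 14.4 FPKM in the knockdown libraries and 12.4 to 14.9 FPKM in the overexpression libraries, and LOC102160869, at 0.20 FPKM or less. TFPI2 overlaps GNGT1, at 0.09 FPKM or less, and PLAUR overlaps LOC106507601, at 0.24 FPKM or less. TFPI overlaps LOC106506297, which was not analysed here. F3, PLAT, PROCR and THBD overlap no other model.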

How the data were processed

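The authors deposited FPKM values per gene, per the file headers, in a table of 9 knockdown libraries and a table of 6 overexpression libraries, which were normalised separately. The submitters' processing notes name the build Sscrofa11.1; the sources used here do not name an aligner, a counting tool or strand use. Symbols and coordinates came from a RefSeq gene table of that build, for 18618 of 19000 and 16949 of 17001 genes. Depth is unknown, so precision is given by the SD over 3 libraries and the standard error of the fit.

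Values were analysed as log2(FPKM + 1), on which fold changes of low genes are understated. The 11645 and 11506 genes that reached 1 FPKM in 3 or more libraries of their table were fitted with limma 3.58.1 in R 4.3.3, with an empirical Bayes variance that follows a trend. Tests were two-sided, with Benjamini-Hochberg adjustment over the whole table, and genes were called at an adjusted p under 0.05. The 3 knockdown-table groups shared one fit. The code was tested on simulated data.

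Replicate numbers were taken to pair libraries. Deviations from the group means of same-numbered libraries correlated at 0.27 to 0.85 over 9 knockdown pairs and at 0.23 to 0.72 over 3 overexpression pairs. All were above the limit of 0.1. Libraries of different number correlated at -0.87 to 0.38 over 18 knockdown pairs and at -0.68 to 0.54 over 6 overexpression pairs. These ranges overlap, so the limit does not single out the pairing. OV143 replicate 1 correlated more with Lv20NC replicate 3 (0.54) than with Lv20NC replicate 1 (0.23). The fit with the number as a block is given beside the one without.

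The members and lists were chosen with earlier results of these data known. The text names the 8 members, SERPINB2, F2R, F2RL1, ANXA2, S100A10, up to 4 called pathway genes each way, and the 2 genes most like each member; F2, VKORC1 and ENO1 were added after their values were seen. A gene of the pathway lists is not reported here and stands in no list count. Alternatives were a pseudocount of 0.1, no filter, equal library medians, the block, and leaving out libraries or numbers. Results of fibroblast markers are 1 of 7 genes past the filter in each table, with summed FPKM of 2.16 to 6.40. Leukocyte markers had 3 of 7 past it, with sums of 14.4 to 26.7, mainly LCP1.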

Additional observations from a re-analysis of the deposited data

How the results depend on the processing

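Direction and call of each tested gene were compared under the alternatives. In OV143 the direction held in every alternative run for all 6 tested genes, the 3 called and the others alike. Without the block, members called in OV143 numbered 0, and 0 to 3 when 1 library was left out, with 3 called without OV143 replicate 2; all genes called ranged from 0 to 513, while other pathway genes stayed at 0. Equal medians gave 2 genes called in OV143. With the block, 223 genes, 3 members and 0 other pathway genes were called. With the block and without number 1, 2 or 3, genes called in OV143 were 705, 1466 and 297, members 3, 5 (PLAT and TFPI2 added) and 3, and other pathway genes 2, 4 and 0, from fits with few residual degrees of freedom; the cause was not tested.

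Genes called in Lv133KD against Lv3NC were 2 as given, 1 with no filter, 0 with equal medians, 30 with the block, 1, 12 and 72 with the block and without number 1, 2 or 3, and 0 to 0 with 1 library left out. In Lv143KD they were 2 as given, 1 with no filter, 1 with equal medians, 20 with the block, 2, 3 and 60 with the block and without number 1, 2 or 3, and 0 to 0 with 1 library left out. Members called stayed at 0 in all 3 knockdown comparisons.

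Small log2 fold changes changed sign in the knockdown table. With the block, F3 in Lv133KD was -0.051 without number 1, 0.36 without number 2 and -0.076 without number 3, and in Lv143KD 0.30 without number 2. TFPI2 in Lv133KD was -0.0091 with equal medians and -0.075 with the block without number 1. In Lv143KD without number 1 and with the block, TFPI2 was -0.053, PLAT -0.079 and PROCR -0.072; PLAUR without number 3 was -0.046, and 0.015 in Lv133KD against Lv143KD. With 1 library left out, F3 ranged from -0.31 to 0.41 in Lv133KD, from -0.45 to 0.28 in Lv143KD and from -0.12 to 0.40 between the vectors. PLAT ranged from -0.27 to 0.033, -0.15 to 0.24 and -0.35 to 0.028 in the same comparisons, and TFPI2 from -0.032 to 0.071, -0.0093 to 0.10 and -0.092 to 0.040. In Lv143KD PLAUR ranged from -0.068 to 0.16 and PROCR from -0.075 to 0.11. The knockdown groups of 3, of unknown depth, limit these small differences.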
